A study of Mus musculus with 2 samples.

Results

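The Mir200 family, Mir203 and Mir205 are microRNA (miRNA) genes known from epithelia. They were taken by gene identifier from the count tables of mouse facial prominence tissue, the buds that build the face, palate and nose. All 7 members were found among 1973 miRNA genes, and all 7 had at least 10 counts in both libraries, as did 360 genes in all. They form 4 units: the cluster of Mir200b, Mir200a and Mir429, the cluster of Mir200c and Mir141, and the single genes Mir203 and Mir205. The data are 2 libraries of the RNA shorter than 30 bases in total RNA, called biological replicates 1 and 2, from healthy B6NCrl embryos aged 13.5 days, each a pool of male and female tissue. Both belong to 1 untreated group, so the libraries give levels and their spread, and no contrast between conditions. The labels do not say how many embryos entered each pool, and both name the same donor entry.

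A miRNA is cut from a hairpin transcript and guides silencing of messenger RNAs that pair with its seed, bases 2 to 8 of the mature strand. The Mir200 family is known for holding cells in the epithelial state by repressing Zeb1 and Zeb2, transcription factors that repress epithelial genes and the Mir200 clusters in return. Mir203 is known for pushing epidermal cells from proliferation to differentiation, with the epidermal stem cell factor Trp63 among its targets, and Mir205 for its high level in the basal cells of stratified epithelia. The face at this stage is a mesenchymal core, much of it from neural crest, under a covering epithelium.

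The strands known as the main products are shown with the seed in capitals, because the seeds sort the 5 Mir200 genes differently from their clusters. They are from RefSeq (GRCm38.p6), which held all 7 members.

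mmu-miR-200b-3p: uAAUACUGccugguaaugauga
mmu-miR-429-3p: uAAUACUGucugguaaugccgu
mmu-miR-200c-3p: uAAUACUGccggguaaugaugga
mmu-miR-200a-3p: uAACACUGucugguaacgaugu
mmu-miR-141-3p: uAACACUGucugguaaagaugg
mmu-miR-203-3p: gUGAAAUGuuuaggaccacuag
mmu-miR-205-5p: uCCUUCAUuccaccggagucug

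The seed AAUACUG was shared by Mir200b, Mir429 and Mir200c, and AACACUG by Mir200a and Mir141, so each cluster holds both seeds. The seeds differ by the substitution U4C, counted from 1 at the 5′ end of the mature strand, with Mir200b first and Mir200a after. Over the first 22 bases Mir200b differed from Mir200c at 2 positions (U11G and A22G) and from its cluster neighbours Mir200a and Mir429 at 4 each. Mir200a differed from Mir141 at 2 positions (C17A and U22G). The seeds of miR-203-3p and miR-205-5p were each found in 1 gene of the table, and no gene outside the 7 carried a seed of these main strands. Every mature sequence of the 7 belonged to 1 gene. The counts are per gene and do not separate the strands of a hairpin. Mature lengths of the 7 genes were 21 to 23 bases, so counts were not divided by length.

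Positions are from GENCODE release M21 (GRCm38). Mir200b (chr4:156055681-156055750), Mir200a (chr4:156054896-156054985) and Mir429 (chr4:156053905-156053987) lie in that order of transcription on the minus strand, within 1846 bases. All 3 sit in an intron of Ttll10, and in the non-coding gene Gm13648 the first 2 are intronic and Mir429 is exonic. Mir200c (chr6:124718322-124718390) and Mir141 (chr6:124717914-124717985) lie on the minus strand within 477 bases, in an intron of the non-coding gene Gm15884, and Mir141 also overlaps part of an exon of Gm29008. Mir203 (chr12:112130880-112130955, plus strand) overlaps no other gene of that release. Mir205 (chr1:193507463-193507530, minus strand) is exonic in the non-coding gene 4631405K08Rik, which RefSeq calls Mir205hg.

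The promoter of Gm13648, a host gene of the Mir200b cluster, is shown as a description. Among the host genes only the windows of Gm13648 and Mir205hg were looked at, and those of Ttll10 and Gm15884 were not. Whether promoters have a part in the ratios between the libraries was not tested. Zeb and Snail factors are known to bind E-boxes of the letters CACCTG, which read CAGGTG on the other strand. Both strands were searched in the 300 bases around each RefSeq gene start, and matches are in capitals. The start of Gm13648 lies 4052 bases before Mir200b by GENCODE, and its window (chr4:156059753-156060052, minus strand) held 2 matches.

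Gm13648: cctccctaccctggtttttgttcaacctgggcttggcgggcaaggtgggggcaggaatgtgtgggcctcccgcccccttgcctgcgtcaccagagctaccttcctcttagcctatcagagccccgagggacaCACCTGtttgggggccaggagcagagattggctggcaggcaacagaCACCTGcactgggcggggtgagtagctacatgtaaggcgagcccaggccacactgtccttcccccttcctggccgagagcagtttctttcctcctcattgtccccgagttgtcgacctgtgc

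Of all 32851 promoter windows in the table, 20.2% held at least 1 match and 2.88% held 2 or more. The window of Mir205hg (chr1:193510161-193510460, minus strand) held 1. A match describes these letters only.

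Together the 7 genes held 6.35% of the miRNA gene counts in replicate 1 and 6.33% in replicate 2. Levels are given as CPM, counts per 1000000 counts on miRNA genes in the strand of the gene, with gene totals of 4562135 in replicate 1 and 5771249 in replicate 2. Intervals for shares are 95% Wilson intervals and cover the counting error of reads only, with no variation between pools or library preparations. The counts are also of PCR-amplified reads rather than of single molecules. In bulk tissue, fewer cells of a type and less RNA per cell cannot be told apart.

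Mir203 had the highest mean of the 7. Its level was 22575 CPM in replicate 1 against 15805 CPM in replicate 2, with a mean of 19190 ± 4787 CPM (SD, n = 2), with shares of 2.26% (2.24 to 2.27) and 1.58% (1.57 to 1.59). It ranked 14 of 360 in replicate 1 and 20 in replicate 2.

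The level of Mir429 was 13418 CPM in replicate 1 against 18412 CPM in replicate 2. Mir205 stood at 15716 and 14330 CPM, a mean of 15023 ± 981 CPM. Mir203 was above Mir205 in each library, and its lowest value lay just above the highest of Mir205, 15805 against 15716 CPM. The range of Mir429 overlapped both, as it was the lowest of the upper 3 genes in replicate 1 and the highest in replicate 2.

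Mir200c came next, at 6727 CPM in replicate 1 against 7258 CPM in replicate 2, with a mean of 6993 ± 376 CPM. Mir200b followed at 3526 and 5299 CPM, a mean of 4413 ± 1254 CPM. Mir200c stayed above Mir200b in each library, and neither range reached those of the upper 3 genes.

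Both genes with the AACACUG seed were at the bottom. Mir141 had 853 CPM in replicate 1 against 1120 CPM in replicate 2, and Mir200a at 724 and 1085 CPM. Their ranges overlapped, although Mir141 was the higher in each library. Summed by seed, AAUACUG genes held 2.37% and 3.10% of counts and AACACUG genes 0.158% and 0.220%, a ratio of 15.0 in replicate 1 and 14.0 in replicate 2.

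**Figure D1:**
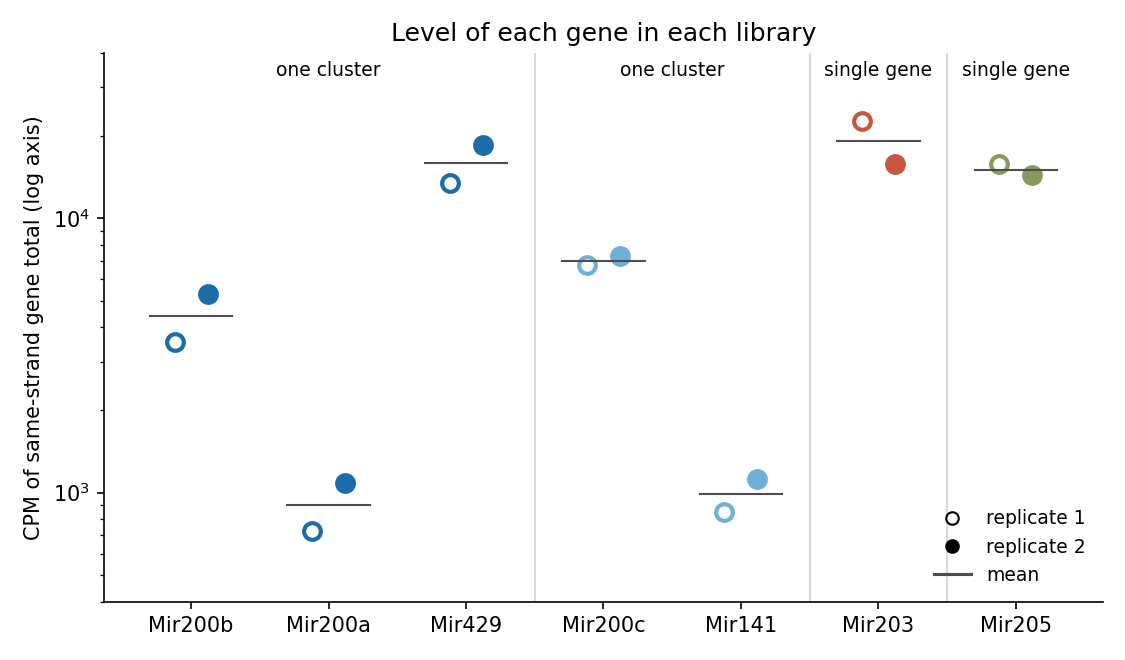
Level of each member in CPM (log axis), with replicate 1 as open points, replicate 2 as filled points and the mean of both as a line. Mir203 lies above Mir205 in both libraries, Mir429 overlaps both at 13418 to 18412 CPM, and Mir141 and Mir200a lie lowest, at 724 to 1120 CPM.

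Within each cluster the order of the genes was the same in both libraries. Mir429 made up 76.0% of the counts of its cluster in replicate 1 (95% Wilson interval 75.6 to 76.2) and 74.3% in replicate 2 (74.0 to 74.5). Mir200b made up 19.96% and 21.4% of that cluster, and Mir200a 4.10% and 4.38%. The ratio of Mir200b to Mir200a was 4.87 in replicate 1 and 4.88 in replicate 2. In the other cluster Mir200c made up 88.7% (88.4 to 89.1) and 86.6% (86.3 to 86.9), and Mir141 11.3% and 13.4%, so the ratio of Mir200c to Mir141 was 7.88 in replicate 1 and 6.48 in replicate 2. In each cluster 1 gene with the AAUACUG seed thus held about 3 in 4 of the counts or more, Mir429 in one and Mir200c in the other.

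Among the units, the Mir200b cluster and Mir203 differed most in their share of the 7 genes. The Mir200b cluster held 27.8% of the counts of all 7 genes in replicate 1 and 39.2% in replicate 2, while Mir203 held 35.5% and 24.96%. The Mir200c cluster took 11.9% and 13.2%, and Mir205 24.7% and 22.6%. As levels, the Mir200b cluster stood at 17667 and 24797 CPM, a mean of 21232 ± 5042 CPM, and the Mir200c cluster at 7580 and 8378 CPM, a mean of 7979 ± 564 CPM. Both Mir200 clusters together held 2.52% and 3.32% of all miRNA gene counts, and Mir203 with Mir205 held 3.83% and 3.01%. Mir203 exceeded the Mir200b cluster in replicate 1 and the reverse held in replicate 2, with a ratio of cluster to Mir203 of 0.783 and 1.57.

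**Figure D2:**
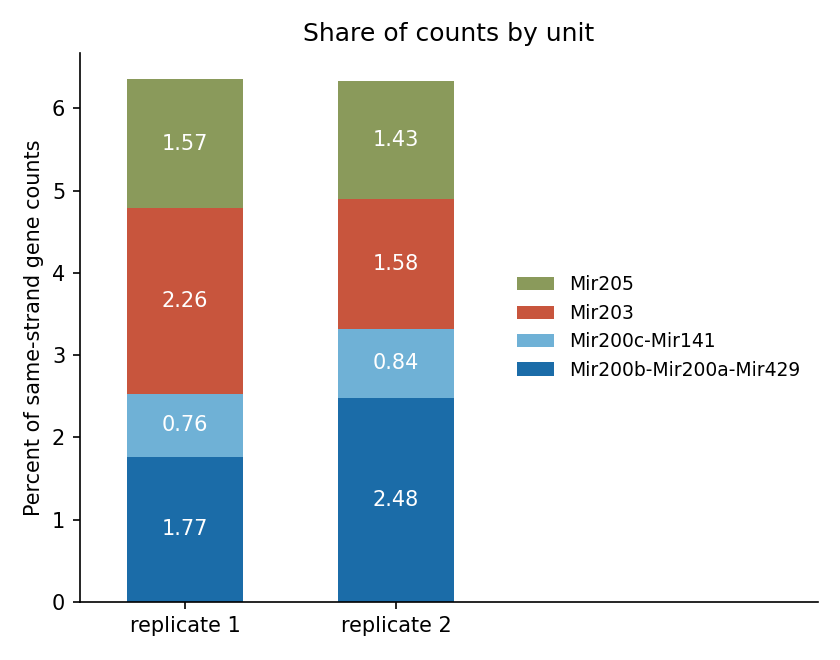
Share of all miRNA gene counts (percent, from 0) held by each unit in each library, as stacked bars. The bars reach 6.35% and 6.33%, while the Mir200b cluster holds 1.77% in replicate 1 and 2.48% in replicate 2, and Mir203 2.26% and 1.58%.

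Between the libraries, 5 members were higher in replicate 2 and 2 in replicate 1 by edgeR TMM scaling and the two-sided exact binomial test with Benjamini-Hochberg adjustment over 360 genes. The largest adjusted p among the 7 was 3.61e-23, that of Mir200c. This test sets the difference between these libraries against counting error only. Calls were common among all genes, with 27.8% of all tested genes called higher in replicate 2 and 27.2% in replicate 1. These shares pool all levels, here and below, and the test calls smaller ratios where counts are high, as for the members. With a minimum of 100 counts in both libraries, 92 of 259 genes were called higher in replicate 2 and 86 in replicate 1.

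Of the 7 genes, 5 differed by over 1.2-fold, against 45.3% of tested genes. These were 4 genes higher in replicate 2, against 21.4% of tested genes, and 1 higher in replicate 1, against 23.9%. Mir200b had a log2 ratio of replicate 2 to replicate 1 of 0.59 (95% interval 0.56 to 0.61) and Mir200a 0.58 (0.52 to 0.65). Mir429 had 0.46 (0.44 to 0.47) and Mir141 0.39 (0.33 to 0.45). Mir203 differed in the other direction, at -0.51 (-0.53 to -0.50). Mir200c, at 0.11 (0.09 to 0.13), and Mir205, at -0.13 (-0.15 to -0.12), stayed within 1.2-fold. The median over the 7 was 0.39, and over all tested genes -0.008, with quartiles of -0.255 and 0.221.

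How common such ratios were depended on the level. An absolute log2 ratio at least that of Mir200b was found in 58 of the 360 tested genes (16.1%), but 56 of these were among the 260 lower genes. Among the 100 genes with the highest mean level, which include all 7 members, only Mir10a (-2.10) matched Mir200b. For Mir203 the count was 68 of 360 (18.9%) and 4 of the highest 100, Mir203, Mir200b and Mir200a among them. The median absolute log2 ratio was 0.150 in the highest 100 genes, where 24 differed by over 1.2-fold, and 0.286 in the lower 260. The common dispersion of edgeR, fitted over both libraries as replicates, gave a coefficient of variation of 18.0% beyond counting noise. With an exact negative binomial test at that dispersion, none of the 7 passed (adjusted p = 1 for each), and 2 of 360 genes did, against 198 with the binomial test. That dispersion pools all levels and comes from the same 2 libraries, so it sets a wide error and says little of genes at the members' level. Fitted on the highest 100 genes, the coefficient of variation was 14.7%, and the 95% intervals of all 7 genes still took in 0, from -0.00 to 1.18 for Mir200b and from -1.10 to 0.07 for Mir203. That fit took in the 7 genes themselves and Mir10a, whose ratio was the largest of the 100. It was not repeated without them, so how far they widen these intervals is not known.

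**Figure D3:**
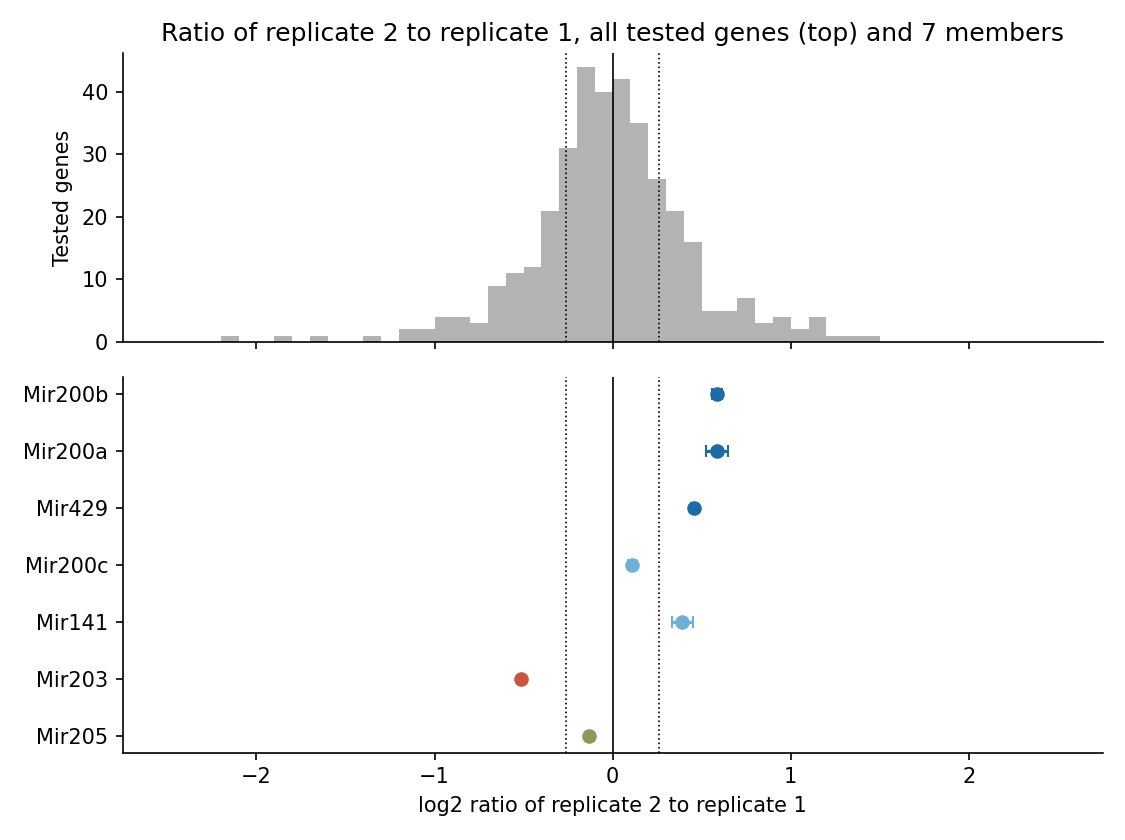
Log2 ratio of replicate 2 to replicate 1 for all 360 tested genes (top, number of genes per bin) and for each member (bottom, points with 95% intervals for counting error), with dotted lines at 1.2-fold. Mir200b, Mir200a, Mir429 and Mir141 lie past the line towards replicate 2, Mir203 past it towards replicate 1, and Mir200c and Mir205 between the lines.

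Ratios of one unit to another do not depend on how the libraries are scaled. All 6 pairs of units differed in log2 ratio beyond counting error, with every 95% interval off 0. The widest difference was between the Mir200b cluster and Mir203, at 1.00 (0.99 to 1.02). The Mir200c cluster and Mir203 differed by 0.66 (0.64 to 0.68), and the Mir200b cluster and Mir205 by 0.62 (0.60 to 0.64). The Mir200c cluster and Mir205 were closest, at 0.28 (0.25 to 0.30). The clusters differed from each other by 0.34 (0.32 to 0.37), and Mir203 minus Mir205 was -0.38 (-0.40 to -0.36). With the common dispersion added, every interval of the 6 took in 0, and that of the Mir200b cluster against Mir203 came nearest to leaving it out, from -0.01 to 2.02. With the dispersion of the highest 100 genes, that interval alone left out 0, from 0.17 to 1.84. It belongs to the widest difference of the 6, and none of these intervals was adjusted for the number of pairs.

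**Figure D4:**
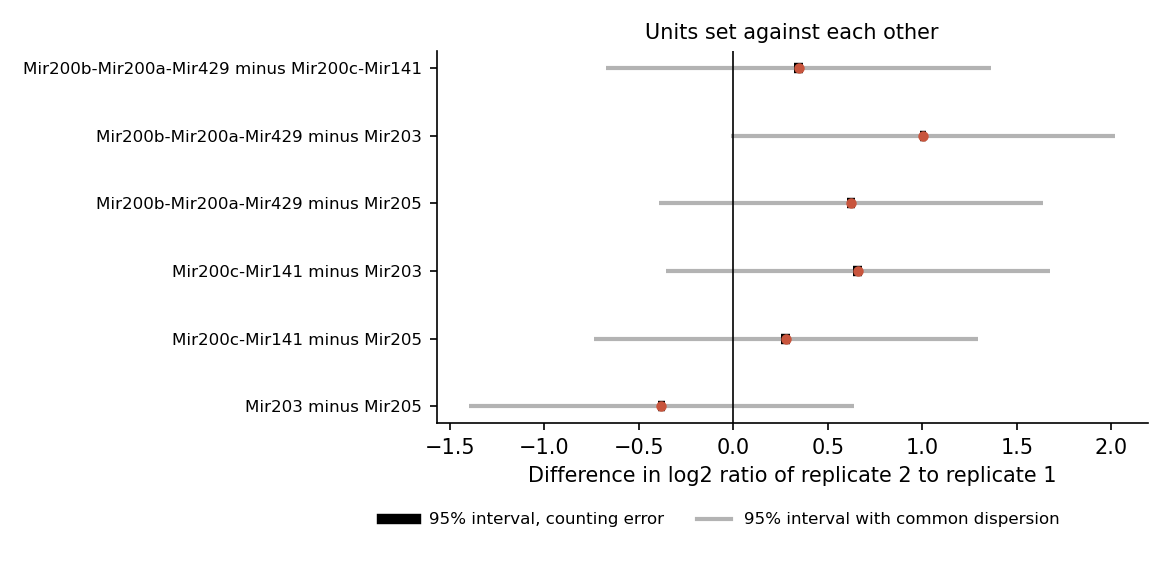
Difference between units in log2 ratio of replicate 2 to replicate 1 (points), with 95% intervals for counting error (black) and with the common dispersion added (grey). All 6 black intervals lie off 0 and all 6 grey intervals take it in, from -0.01 to 2.02 for the Mir200b cluster minus Mir203.

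Within the Mir200 family, cluster and seed can be set side by side, since each seed occurs in each cluster. Among cluster mates the log2 ratios of Mir200b and Mir200a differed by 0.00 (95% interval -0.06 to 0.07), those of Mir200b and Mir429 by 0.13 (0.10 to 0.16), and those of Mir200a and Mir429 by 0.13 (0.07 to 0.19). Mir200c minus Mir141 was -0.28 (-0.34 to -0.22). Among genes with the same seed in different clusters, Mir200b and Mir200c differed by 0.48 (0.44 to 0.51), Mir429 and Mir200c by 0.35 (0.32 to 0.37), and Mir200a and Mir141 by 0.19 (0.11 to 0.28). The ratios of the 3 genes of the Mir200b cluster thus lay close together, while Mir141 lay nearer to Mir429 (0.06, interval 0.01 to 0.12) than to its own neighbour Mir200c. All of these intervals took in 0 once the common dispersion was added. Among all 21 pairs of the 7 genes, such an interval left out 0 for 2: Mir200b minus Mir203, at 1.10 (0.08 to 2.12), and Mir200a minus Mir203, also at 1.10 (0.08 to 2.12). These intervals were not adjusted for the number of pairs.

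Other miRNAs known from epithelia also differed between the libraries, most of them higher in replicate 2, as were 27.8% of all tested genes (27.2% were higher in replicate 1). The sensory cluster of Mir183, Mir182 and Mir96, found in hair cells and other sensory epithelium, held 2.15% and 2.42% of counts. All 3 of its genes were higher in replicate 2, with log2 ratios of 0.13, 0.16 and 0.33. A further list of 8 miRNA genes from skin, glands and airways held 0.209% and 0.245%. Of its 7 tested genes 5 were higher in replicate 2, among them Mir375 of secretory cells (745 and 1009 CPM) and Mir34c of multiciliated cells (551 and 620 CPM). Mir31, known from keratinocytes, was higher in replicate 1 (324 and 266 CPM, log2 ratio -0.28), as Mir203 and Mir205 were. Mir34a did not pass (adjusted p = 0.0677, exact binomial test).

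Some markers of other cell types also differed between the libraries, and others did not pass. The mesenchyme and cartilage list of 7 genes held 6.42% and 6.94% of counts, led by Mir214, Mir140 and Mir143. Mir143 is also known from vessels. In this list 6 genes were higher in replicate 2, against 27.8% of all tested genes. The remaining 1, Mir214, was higher in replicate 1 (log2 ratio -0.13), against 27.2%. Endothelial Mir126a held 2.58% and 2.39%. The muscle list held 0.0622% and 0.0385%, led by Mir206 of skeletal muscle at 570 and 314 CPM, which makes up most of that sum. Its 3 tested genes did not differ alike. Mir206 was higher in replicate 1 and Mir208b in replicate 2 (39.02 and 60.65 CPM), while Mir133b did not pass. The neural list held 0.0554% and 0.0565%, and 1 of its 4 tested genes was called, higher in replicate 2. Mir137, which led it, did not pass. The blood list held 0.0577% and 0.0653%, led by Mir223 (383 and 363 CPM), which did not pass. Its other 3 tested genes were called higher in replicate 2. Red cell Mir144 stood at 25.2 and 64.8 CPM, a log2 ratio of 1.36, the largest of these, against 0.43 for Mir155 and 0.39 for Mir451a. At 0 in both libraries were 3 muscle genes (copies of Mir1a and Mir133a) and 3 neural genes (copies of Mir124a and Mir9). These families have near-identical copies at several loci, and reads placed at several loci carry no gene in these counts. What part these differences have in those of the epithelial genes was not tested.

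The genes most like the leading member of each unit were found by distance of log2 CPM over the 2 libraries. Mir93 lay nearest to Mir429, at 13819 and 18447 CPM, a distance of 0.043, and Mir30e came after at 0.214. Mir411 (7136 and 7134 CPM) and Mir151 (6123 and 6552 CPM) lay nearest to Mir200c. Nearest to Mir203, Mir23a (19134 and 17446 CPM) was at a distance of 0.278 and Mir143 (16319 and 19231 CPM) at 0.547. Nearest to Mir205 were Mir30e (15404 and 17438 CPM) and Mir20a (12516 and 14374 CPM), at 0.285 and 0.329.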

How the data were processed

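The authors deposited whole-number read counts per miRNA gene for each library, made on mm10 with GENCODE M4, per the deposited description files. Which aligner, counter and trimmer were run is not given in the sources used here. From the layout, the 3 columns were read as unstranded, same-strand and opposite-strand counts. The same-strand column was used, and the read classes stayed out of totals. Multiply placed reads formed 30.7% and 31.0% of all reads and carry no gene. Genes were named by identifier from GENCODE M21 (1894 of 1973 matched).

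Genes with 10 counts or more in each library were tested. TMM factors were computed over these genes in edgeR 4.0.16 (R 4.3.3). The test was the exact binomial test, two-sided, adjusted by Benjamini-Hochberg with a threshold of 0.05, and intervals are 95% Wald intervals of log ratios. Fisher's exact test was also run on the 6 pairs of units, and the largest p adjusted over those pairs was 8.28e-109. Depth sets the floor: a count of 0 allows 3 counts, 0.658 CPM in replicate 1 and 0.520 CPM in replicate 2. The binomial test was tried on counts simulated with counting error only, so that run says nothing of variation between libraries. The dispersion fit was tried on counts simulated with such variation. Alternatives were total counts, DESeq2 1.42.0 size factors, the unstranded column, count minimums of 1 and 100, the common dispersion, other denominators and leaving out each library.

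Members, lists and fold limits were chosen with earlier results of these data known. Named genes were the 7 members, the 2 tested genes nearest to each unit's leading member, and up to 3 of the highest genes of each list. Mir34a and Mir144 were named after their values were seen, as were the genes at 0. The promoter search, the comparison with the highest 100 genes and the comparison of genes within and across clusters were also added then.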

Additional observations from a re-analysis of the deposited data

Results flagged for a closer look

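Counts on the opposite strand of Mir203 lay outside the column analysed and exceeded 3 counts, the upper limit for a count of 0. There were 71 in replicate 1 and 73 in replicate 2, which is 0.0689% and 0.0800% of the counts on both strands there. Over all genes the opposite-strand counts came to 126885 and 158904, beside same-strand totals of 4562135 and 5771249. That is a larger share than at Mir203. RefSeq (GRCm38.p6) places the miRNA gene Gm51289 on the minus strand at chr12:112130887-112130946, inside the Mir203 hairpin region, with the mature strands shown here with their seeds in capitals.

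mmu-miR-203b-5p: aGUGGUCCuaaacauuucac
mmu-miR-203b-3p: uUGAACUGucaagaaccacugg

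Mir205 had 0 and 2 counts on the opposite strand, and the 5 Mir200 genes had 0 in each library. Whether the reads at Mir203 come from Gm51289 was not tested, since the counts give no read sequences.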

How the results depend on the processing

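No paired analysis was possible because the libraries form 1 group. Every member and unit kept its direction under total counts, DESeq2 size factors, the unstranded column and count minimums of 1 and 100, and stayed on the same side of its threshold. The differences between units kept their direction with the mean of the members' log2 ratios in place of summed counts. At the common dispersion the count of genes that differ fell from 198 to 2, and the log2 ratios of the units, 0.4886 for the Mir200b cluster, 0.1438 for the Mir200c cluster, -0.5149 for Mir203 and -0.1338 for Mir205, no longer passed. The same held for the differences between units with that dispersion in the interval: 0.3448 between the clusters, 1.0035 for the Mir200b cluster minus Mir203, 0.6224 for it minus Mir205, 0.6587 and 0.2776 for the Mir200c cluster minus Mir203 and minus Mir205, and -0.3811 for Mir203 minus Mir205. The wider error takes in the scatter between the 2 libraries, which the binomial test leaves out. With the dispersion of the highest 100 genes, chosen after seeing the data, the same 4 ratios and 5 of the 6 differences did not pass either. The Mir200b cluster minus Mir203 did, by an interval not adjusted for the 6 pairs. With the most abundant gene out of the total, Mir205 rose to 16084.5 CPM and Mir200c to 7481.1 CPM, each by more than its small SD. Leaving out a library leaves no ratio, and levels then equal those of the other library. With 2 libraries the SD itself is poorly known, and multiply placed reads limit the genes that share a mature sequence, none of which are among the 7. The absence of those reads from the totals still bears on the shares and ranks of the 7.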

Other observations

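Pairs of neighbouring genes elsewhere give a scale for how closely cluster mates moved. Outside the 7 genes there were 104 pairs of adjacent tested miRNA genes on 1 strand with a gap of at most 10000 bases. Their log2 ratios of replicate 2 to replicate 1 differed by a median of 0.233 (quartiles 0.092 and 0.405). Mir200a and Mir200b differed by 0.003, and 1 of the 104 pairs was as close. Mir429 and Mir200a differed by 0.129, with 33 of the 104 pairs as close, and Mir141 and Mir200c by 0.282, with 63. Pairs of 1 cluster share genes and are not independent, so these counts are a description. The pairs were not matched by level, and ratios spread more widely among lower genes. Mir200b minus Mir200a had a 95% interval for counting error of -0.06 to 0.07, so its place among the pairs is uncertain. This comparison was chosen after the ratios had been seen.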
